A study of Homo sapiens with 8 samples.

Results

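A readthrough gene is an annotated gene whose transcripts begin in one gene and end in the next gene on the same strand, and its symbol joins the symbols of those parents with a hyphen. The table of normalised CPM (counts scaled to library size) for MDA-MB-231 cells was searched for symbols that could be cut at a hyphen into 2 symbols that the table also held. This rule found 77 symbols of 17649, on 78 of 17681 rows, with 154 parents, because ARMCX5-GPRASP2 has 2 identifiers. The readthrough genes are the subject here, and the parents serve as their partners.

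MDA-MB-231 cells, an established line from a human breast cancer, are negative for the estrogen receptor. The study compared 4 control cultures, which received phosphate-buffered saline, with 4 cultures given carboxymethyllysine (CML, here called NCML after the sample titles), an adduct of lysine that forms when sugars and their breakdown products react with protein, at 1 μM for 48 hours. All cultures were of this 1 line, grown in low-glucose medium, and carried no genetic change made for the study. The labels do not say how the replicates were obtained, so the p-values measure the spread between these 8 libraries, which may be partly technical. The libraries held 16161801 to 18954732 estimated reads, so that 1 read was worth 0.0535 to 0.0622 CPM. VIM, CD44, FN1, EGFR and KRT18, all known from this line, lay between 310.5 and 4243 CPM, and the luminal markers PGR and FOXA1 did not pass 0.114 and 0.0622 CPM, with CDH1 at 0.311 to 0.954 and GATA3 at 3.47 to 5.60 CPM. Of the markers of other cell types, PTPRC and VWF did not pass 0.650 and 0.747 CPM, while PECAM1 reached 3.84, PDGFRB 4.88 and COL1A1 13.3 CPM. ESR1 and CD3E were not among the genes analysed here.

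When RNA polymerase II passes a polyadenylation signal, a cleavage complex normally cuts the RNA, and the exonuclease XRN2 degrades the trailing piece until the polymerase stops. If cleavage fails, the polymerase can run into the neighbouring gene, and splicing may then join the last splice donor of the upstream gene to an acceptor of the downstream gene. Some joined RNAs keep the reading frame and could encode a fusion of the proteins, whereas others hold an early stop codon, for which nonsense-mediated decay is the known route of removal. Most of a typical readthrough transcript consists of exons that its parents also have, and a short read inside those exons does not tell it from a parent. A read can do so if it crosses the junction or lies in exon bases that neither parent has.

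The junction sequences are part of what sets a readthrough transcript apart. They were read from GENCODE release 44 transcripts mapped to GRCh37, while the submitters' processing notes name hg38, so the positions are those of GRCh37 only. Each run has the last 30 bases before the junction in lower case and the first 30 bases after it in capitals, the capitals marking the exon of the downstream parent, and all bases lie in coding sequence of the parents. In the first 6, chosen from the most abundant genes and from those with the smallest p, the downstream coding sequence is read in its own frame. In the last 2 it is read in another frame.
TMED7-TICAM2: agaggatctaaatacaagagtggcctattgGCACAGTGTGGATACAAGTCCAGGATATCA
RPS10-NUDT3: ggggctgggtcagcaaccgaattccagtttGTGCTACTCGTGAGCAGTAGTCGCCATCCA
FMC1-LUC7L2: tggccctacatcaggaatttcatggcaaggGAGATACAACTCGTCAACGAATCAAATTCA
MSANTD3-TMEFF1: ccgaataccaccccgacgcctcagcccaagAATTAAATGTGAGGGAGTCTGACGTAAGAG
TMEM189-UBE2V1: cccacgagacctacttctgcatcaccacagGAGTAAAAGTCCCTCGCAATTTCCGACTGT
TGIF2-RAB5IF: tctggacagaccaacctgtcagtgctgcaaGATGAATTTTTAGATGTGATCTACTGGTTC
ISY1-RAB43: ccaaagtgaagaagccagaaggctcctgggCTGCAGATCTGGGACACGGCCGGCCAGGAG
INO80B-WBP1: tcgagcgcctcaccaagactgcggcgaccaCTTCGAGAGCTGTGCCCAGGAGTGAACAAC

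These junctions bridge long stretches of genome. The last base before and the first base after the junction lie at the ends of chr5:114916894-114952015 on the minus strand for TMED7-TICAM2, where 35120 bases are spliced out. They lie at the ends of chr6:34309749-34386146 (minus strand) for RPS10-NUDT3, with 76396 bases removed, and at the ends of chr7:139030367-139060808 (plus strand) for FMC1-LUC7L2, with 30440 bases removed. For TMEM189-UBE2V1 the ends are those of chr20:48713357-48744512 (minus strand), and for INO80B-WBP1 those of chr2:74684665-74686770 (plus strand), where only 2104 bases are removed. The files hold values per gene and no reads across junctions, so these sequences were not counted.

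The annotation placed the readthrough genes where the name says. Of the 78 rows, 77 had both parents in GENCODE release 44 under their identifiers, and all 77 lay on the chromosome and strand of both parents with the first-named parent upstream. PALM2-AKAP2 is the exception, because that release merges it with its parents. The gap between the parents had a median of 3519 bases, 52 of the 77 gaps were under 10000 bases, and in 8 loci the parents themselves overlapped. A median of 96.5% of the exon bases of a readthrough gene lay inside exons of its parents, and 51 rows had at least 90% there. The lowest value was 5.23%, for the identifier ENSG00000286237.1 of ARMCX5-GPRASP2. Of 72 rows with a coding transcript, 35 kept coding bases of both parents in frame, 31 kept those of the upstream parent only and 5 those of the downstream parent only, while the remaining row kept neither. A few bases were enough to count: ZNF670-ZNF695 kept 3 in-frame bases of its upstream parent and BORCS8-MEF2B kept 22. An annotated transcript marked for nonsense-mediated decay was present for 42 rows.

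The readthrough genes covered a wide range of levels. Their median mean level was 1.79 CPM, 12 rows had a mean of at least 10 CPM, 59 rows had at least 0.5 CPM, and 19 rows were below that. One of these, LINC02210-CRHR1, was listed at 0 in every library. The 77 symbols summed to between 523 and 561 CPM per library. Of the 78 rows, 59 lay below both parents, and 5 lay above both before gene length was taken into account.

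ANKHD1-EIF4EBP3 took the most reads (chr5:139781493-139929154, plus strand). It joins ANKHD1, a protein of ankyrin repeats and a KH domain, with EIF4EBP3, a repressor of translation initiation, and its annotated coding sequence holds 99.3% of that of ANKHD1 and none of EIF4EBP3 in frame. The 4 control libraries had 80.8, 90.9, 84.7 and 110 CPM and the 4 NCML libraries 68.0, 87.7, 72.6 and 76.9 CPM. The NCML libraries were lower on average but the groups overlapped, with a log2 fold change of -0.26 ± 0.11 (SE, limma adjusted p = 0.679). The row held 33.1% of the reads of its locus, meaning the readthrough gene and both parents together, while EIF4EBP3 held 0.494%.

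**Figure D1:**
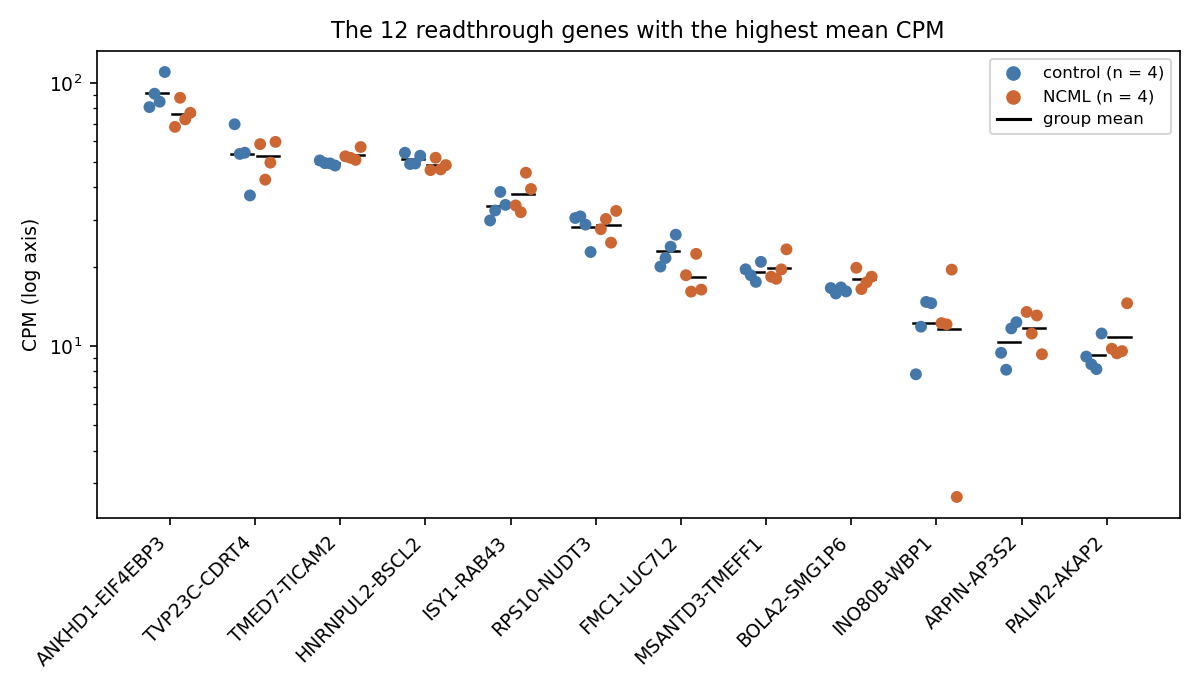
CPM of the 12 readthrough genes with the highest mean, on a log axis, with 1 point per library and a line at each group mean. The groups overlap in 11 of the 12 genes, TMED7-TICAM2 being the exception, and the INO80B-WBP1 value of NCML 4 (2.66 CPM) lies far below its other 7 values.

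TVP23C-CDRT4 (chr17:15339338-15466875, minus strand) was the highest per kb of exon, at 15.3 CPM per kb. TVP23C encodes a Golgi membrane protein. The controls had 69.6, 53.6, 54.2 and 37.3 CPM and the NCML libraries 58.5, 42.8, 49.7 and 59.6 CPM, with the highest and the lowest value both among the controls. Its log2 fold change was -0.01 ± 0.20 (SE, adjusted p = 1). Its level per kb stood above TVP23C (2.23 CPM per kb) and above CDRT4 (8.56 CPM per kb).

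TMED7-TICAM2 (chr5:114914339-114961858, minus strand) had the smallest CV (coefficient of variation within groups, 3.91%) of the 20 genes described by name. TMED7 is a cargo receptor of the early secretory pathway, TICAM2 is an adaptor of Toll-like receptor 4, and the annotated protein keeps 84.2% of the coding sequence of the first and 91.6% of that of the second. The controls had 50.7, 49.5, 49.4 and 48.5 CPM and the NCML libraries 52.5, 51.9, 50.9 and 57.0 CPM. All 4 NCML values were above all 4 control values, although the difference was small (log2 fold change 0.10 ± 0.04, SE, limma adjusted p = 0.572). The TICAM2 row had 0.258 CPM on average, and the readthrough gene held 12.2% of the locus reads against 0.0621% for TICAM2. Of the exon bases of TMED7-TICAM2, 71.7% lay in exons of TICAM2. How reads in these shared bases were divided was not tested, so the low row does not show that TICAM2 was silent.

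The next genes by level differed little between the groups. HNRNPUL2-BSCL2 joins the gene of an RNA-binding protein with that of seipin, which acts in lipid droplet formation. Its only annotated transcript is marked for nonsense-mediated decay and keeps no coding bases of BSCL2 in frame. The row had 51.4 ± 2.54 CPM in controls and 48.5 ± 2.45 CPM with NCML (SD, n = 4 each). ISY1-RAB43 joins the gene of a splicing factor with that of a small GTPase of the Golgi, whose coding bases it does not keep in frame. It had 33.9 ± 3.56 and 37.8 ± 5.96 CPM. RPS10-NUDT3 joins a protein of the small ribosomal subunit with a hydrolase of diphosphoinositol phosphates and had 28.3 ± 3.84 and 28.8 ± 3.41 CPM. The group ranges of each of these 3 genes overlapped.

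FMC1-LUC7L2 joins an assembly factor of the mitochondrial ATP synthase with a splicing protein of the U1 particle. The controls had 20.02, 21.6, 23.8 and 26.5 CPM and the NCML libraries 18.6, 16.1, 22.4 and 16.4 CPM. Only NCML 3 reached into the control range, and the log2 fold change was -0.31 ± 0.13 (SE, adjusted p = 0.620). Its share of the locus reads was 24.4 ± 1.63% in controls and 19.1 ± 3.03% with NCML (SD, n = 4 each, 2-sided exact permutation p = 0.0571), while LUC7L2 had 68.1 ± 2.78 and 74.2 ± 3.53 CPM.

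The MSANTD3-TMEFF1 row was assigned more reads than its downstream parent. TMEFF1, a membrane protein with follistatin-like domains, had 0.431 CPM on average, whereas the readthrough gene had 19.1 ± 1.43 CPM in controls and 19.8 ± 2.42 CPM with NCML (SD, n = 4 each). Of the exon bases of MSANTD3-TMEFF1, 95.8% lay in exons of TMEFF1, and how reads in these shared bases were divided was not tested. The annotated protein keeps 82.8% of the TMEFF1 coding sequence and 9.58% of that of MSANTD3. BOLA2-SMG1P6, whose upstream parent acts in iron-sulfur cluster handling and whose downstream parent is a pseudogene of SMG1, had 16.6, 15.8, 16.7 and 16.1 CPM in controls and 19.8, 16.4, 17.4 and 18.3 CPM with NCML, where NCML 2 lay within the control range. The values of BOLA2-SMG1P6 should be read with care. Its exons lie in a region of near-identical copies, and only 28.9% of its exon bases fall in exons of the named parents. Whether the copies affected these values was not tested.

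Above both parents in CPM stood TVP23C-CDRT4, ISY1-RAB43, BOLA2-SMG1P6, FAM47E-STBD1 and JMJD7-PLA2G4B. Per kb of exon length, 6 of the 77 rows with lengths for all 3 genes stood above both parents. These were TVP23C-CDRT4, FMC1-LUC7L2, ISY1-RAB43, FAM47E-STBD1, BORCS8-MEF2B and ST20-MTHFS, the last 2 named after their values were seen. BOLA2-SMG1P6 (5.02 CPM per kb against 9.66 for BOLA2) and JMJD7-PLA2G4B (0.453 against 1.01 for JMJD7) fell below a parent once length was counted. FAM47E-STBD1, whose downstream parent binds glycogen, had 8.77, 12.3, 8.27 and 12.2 CPM in controls and 6.67, 11.7, 7.16 and 9.53 CPM with NCML.

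How firmly a read can be given to a readthrough gene was examined from the values themselves. Dividing a CPM value by the CPM of 1 read gave the estimated reads of that gene, and a value was called whole if it lay within 0.05 read of a whole number. Among values of at least 1 read, 89.0 ± 3.42% of those of readthrough genes were not whole (mean ± SD over 8 libraries), against 13.2 ± 0.327% over all rows. The upstream parents had 74.0 ± 4.96% and the downstream parents 78.6 ± 5.29%. In every library the readthrough genes were above both kinds of parent, and all 3 were above the whole table. The values behind the readthrough genes are therefore estimates and not counts of reads.

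**Figure D2:**
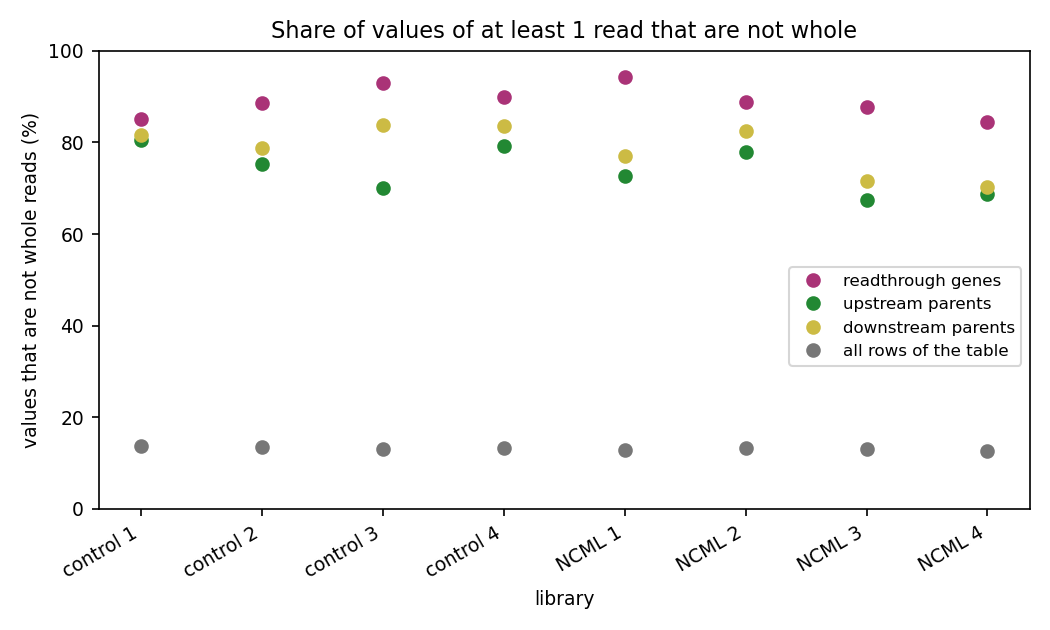
Percent of values of at least 1 estimated read that are not whole, by library, for readthrough genes, their upstream and downstream parents and all rows of the table. The readthrough genes lie between 84.4% and 94.3%, and all rows between 12.7% and 13.7%.

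Most of the decimals disappeared when the 3 rows of a locus were summed. Of 487 locus values in which the readthrough gene was not whole, 395 (81.1%) became whole when both parents were added. Adding the upstream parent alone made 63 (12.9%) whole and the downstream parent alone 89 (18.3%), and the tolerance itself takes in 10% of all possible decimals. With a tolerance of 0.01 read, which takes in 2%, 340 of the same values (69.8%) were whole with both parents. In 57 of 76 loci every such value became whole.

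The INO80B-WBP1 locus shows how the rows varied against each other (chr2:74682215-74688011, plus strand). INO80B is a subunit of a chromatin remodelling complex, and WBP1 binds WW domains. The readthrough gene had 130.74, 200.05, 242.80 and 254.83 estimated reads in the controls and 210.74, 225.63, 319.74 and 42.81 with NCML. INO80B had 437.59, 466.00, 338.58 and 314.20 reads in the controls and 443.37, 419.18, 265.23 and 443.94 with NCML, so that it was lowest in NCML 3, where the readthrough gene was highest. The 3 rows together came to 1123.00, 1215.94, 1091.00 and 1103.00 reads in the controls and 1205.97, 1211.00, 1086.00 and 988.01 with NCML, and 7 of these 8 sums were whole. The CV within groups was 45.2% for the readthrough gene and 5.43% for the sum.

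**Figure D3:**
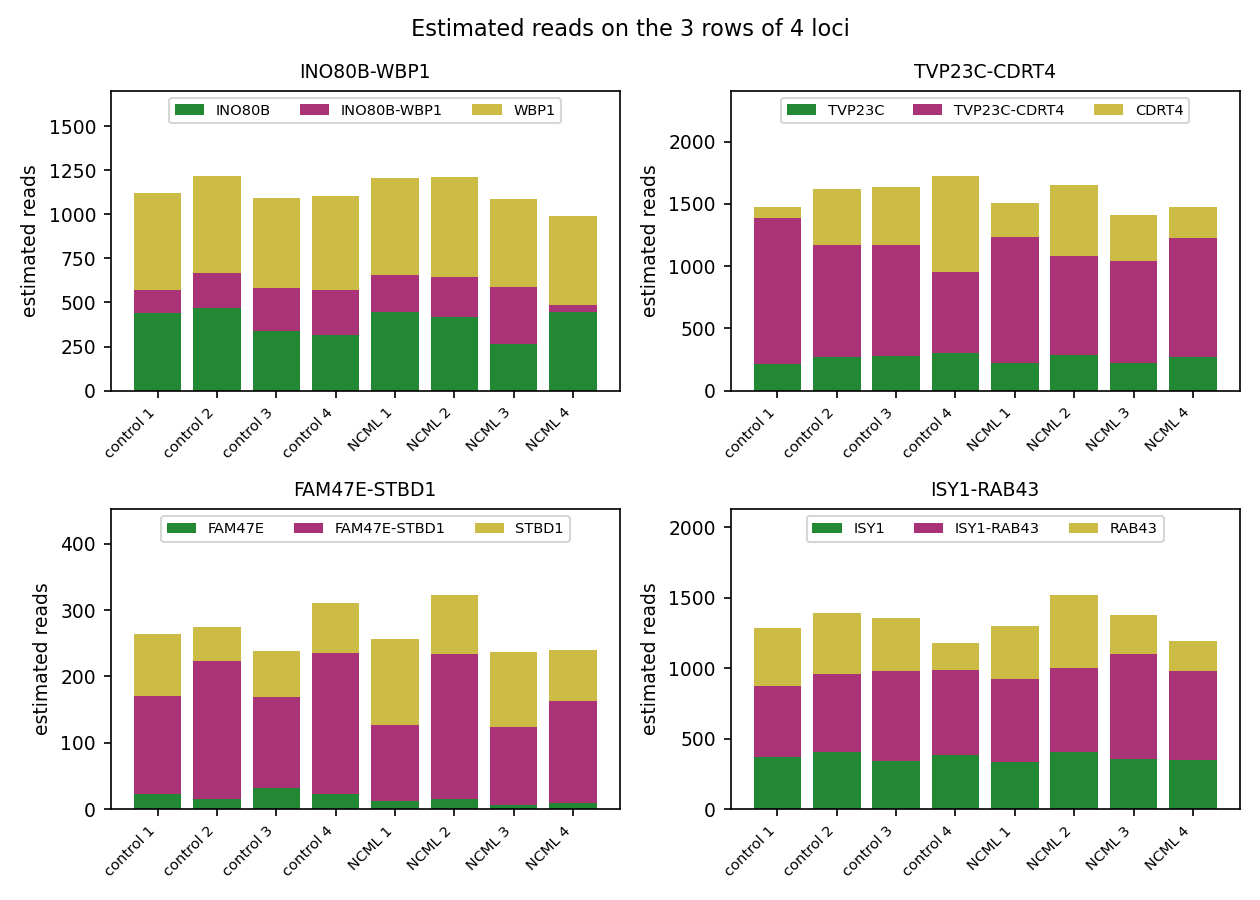
Estimated reads on the upstream parent, the readthrough gene and the downstream parent in each library, stacked, for INO80B-WBP1, TVP23C-CDRT4, FAM47E-STBD1 and ISY1-RAB43. The division of a bar varies more between libraries than its height: for TVP23C-CDRT4 the CV is 20.4% for the readthrough gene and 4.31% for the sum.

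At TVP23C-CDRT4 the readthrough gene and the downstream parent were high in different libraries. CDRT4 had 88.75 reads in control 1, where the readthrough gene had its highest 1166.49, and 768.86 reads in control 4, where the readthrough gene had its lowest 654.54. None of the 8 sums was whole, in contrast to INO80B-WBP1. It was 1 of 13 loci in which fewer than 4 in 10 values became whole. The others were ARMCX5-GPRASP2, BOLA2-SMG1P6, ISY1-RAB43, NEDD8-MDP1, RBM14-RBM4, RPL17-C18orf32, RPL36A-HNRNPH2, RPS10-NUDT3, SENP3-EIF4A1, SLX1A-SULT1A3, SLX1B-SULT1A4 and ZNF625-ZNF20. Several of these involve families with near-identical copies, such as ribosomal protein genes and the SULT1A genes, but whether other rows hold the missing decimals was not tested.

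Some readthrough genes had reads in some libraries and were at 0 in others. Of 60 rows that reached 20 estimated reads in at least 1 library, 11 (18.3%) were at 0 in another library, against 86 of 13536 (0.635%) over all rows. These shares were not matched for level: 12 of the 60 averaged 10 to 100 CPM, against 7161 of the 13536. BIVM-ERCC5 is the extreme case, named after its values were seen. It had 28.22 reads in control 1, where BIVM had 601.78 and ERCC5 1075.00, and 0 reads in the other 7 libraries. BLOC1S5-TXNDC5, also named after its values were seen, had 107.48, 266.57, 0 and 10.34 reads in the controls and 89.42, 112.33, 147.92 and 216.09 with NCML. COMMD3-BMI1, whose downstream parent is a core component of Polycomb repressive complex 1, had 75.29, 29.78, 26.02 and 10.44 reads in the controls and 32.49, 0, 0 and 11.36 with NCML, so that NCML 1 lay above 3 of the 4 controls. A value of 0 in these rows means that no read was assigned there.

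The spread between libraries was larger for the readthrough genes than for the sums. Among 58 loci with a readthrough gene of at least 0.5 CPM, the CV within groups had a median of 32.7% for the readthrough gene, 7.16% for the upstream parent, 8.45% for the downstream parent and 4.39% for the sum. The median over all rows of at least 0.5 CPM was 7.27%. The sum varied less than the readthrough gene in 57 of 58 loci, BOLA2-SMG1P6 being the exception (6.13% for the gene and 6.20% for the sum), and less than all 3 rows in 46. Higher levels carry less counting error, so the variances were also compared directly: that of the sum was smaller than the summed variances of its 3 rows in 37 of 58 loci, with a median ratio of 0.830. The ratio was 0.0575 at TVP23C-CDRT4, 0.244 at INO80B-WBP1 and 0.264 at FAM47E-STBD1. At similar levels the readthrough genes also varied more than other genes: for rows with a mean of 2 to 10 CPM, the variance of estimated reads was a median 5.95 times the mean in 22 readthrough genes and 1.57 times in 2698 rows of the table, and for 10 to 100 CPM the values were 6.73 in 12 and 2.14 in 7161.

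**Figure D4:**
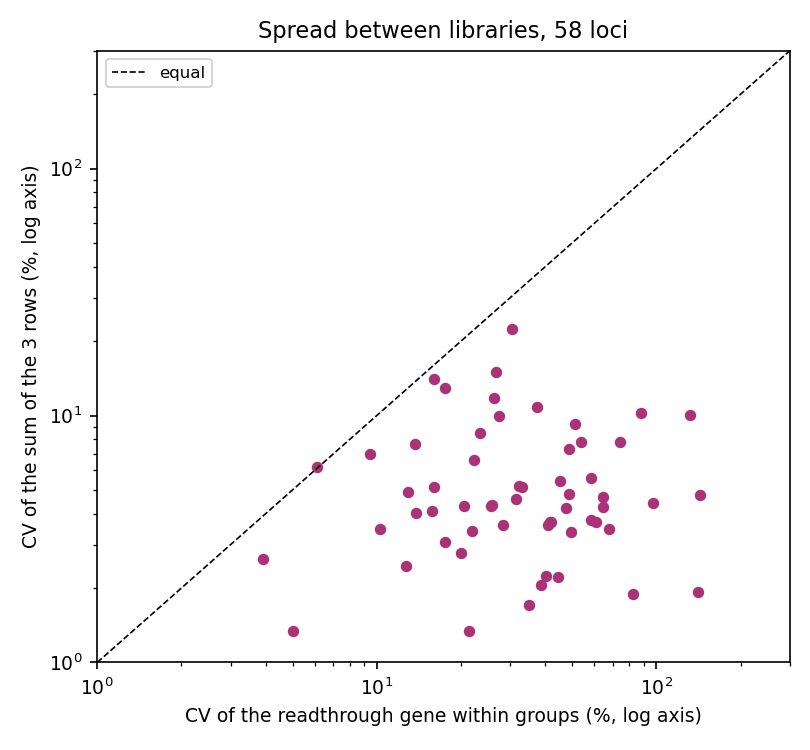
CV within groups of 58 readthrough genes against the CV of the sum of the gene and its parents, both on log axes, with 1 point per locus. All points but 1 lie below the line of equal values, with medians of 32.7% and 4.39%.

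The comparison of NCML with control asked whether exposure to the adduct altered the level of readthrough genes. No readthrough gene was called. At an adjusted p under 0.3, the FDR that the study used for its heatmap, limma called 158 of 17649 genes, 0.895%, of which 119 were higher and 39 lower with NCML, and 0 of 77 readthrough genes. At 0.05 it called 0 genes of any kind, with 1352 genes at an unadjusted p under 0.05. The smallest adjusted p of a readthrough gene was 0.409. Of 58 readthrough genes averaging 0.5 CPM or more, 4 had an unadjusted p under 0.05 and were higher with NCML (6.90%, against 5.44% of 14090 genes at that level), and 3 were lower (5.17% against 2.86%).

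The differences of the readthrough genes spread widely around a median near 0. Their median log2 fold change was -0.05, with 27 above and 31 below 0, beside 0.01 over the 14090 genes. The lower and upper quartiles were -0.27 and 0.12 for the readthrough genes and -0.04 and 0.06 for the 14090 genes. A difference of over 0.5 on the log2 scale in either direction was seen in 6 of 58 readthrough genes (10.3%) and in 0.390% of the 14090 genes. The residual SD of the fit on the log2 scale had a median of 0.317 for readthrough genes and 0.0990 for the 14090 genes. Levels were not matched here: 25 of the 59 readthrough rows averaged 0.5 to 2 CPM, against 1996 of 14115 rows of the table.

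TMEM189-UBE2V1 had the smallest p. TMEM189, named PEDS1 in newer annotation, is the desaturase that makes plasmalogen lipids, UBE2V1 is a cofactor for building ubiquitin chains, and the annotated fusion keeps 85.3% and 82.2% of their coding sequences. The controls had 1.60, 2.54, 1.29 and 1.74 CPM and the NCML libraries 2.39, 3.92, 6.31 and 5.38 CPM. NCML 1 was below control 2 and the other 3 NCML libraries were above all controls, which gave a log2 fold change of 0.94 ± 0.26 (SE, adjusted p = 0.409). The readthrough gene made up 0.593% of the locus reads in controls and 1.54% with NCML (2-sided exact permutation p = 0.0571). Both parents were slightly lower with NCML, with TMEM189 at 58.6 ± 2.91 and 53.2 ± 2.31 CPM and UBE2V1 at 244 ± 5.53 and 234 ± 5.42 CPM (SD, n = 4 each; adjusted p = 0.506 and 0.623). The difference passed 0.3 when the test was limited to genes averaging 1 CPM or more (adjusted p = 0.0788) and without NCML 1 (adjusted p = 0.291).

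TGIF2-RAB5IF and ATP5MF-PTCD1 were the next 2 among the higher genes. TGIF2 is a homeobox repressor of transcription, and TGIF2-RAB5IF had 1.73, 2.71, 0.745 and 0.930 CPM in controls and 4.81, 3.20, 2.70 and 2.72 CPM with NCML, where control 2 overlapped the NCML range (log2 fold change 0.82 ± 0.27, SE, adjusted p = 0.507). With genes of at least 1 CPM its adjusted p was 0.206. ATP5MF-PTCD1 joins a subunit of the mitochondrial ATP synthase with an RNA-binding protein of mitochondria, and had 9.54, 8.11, 9.38 and 7.41 CPM in controls and 11.7, 10.95, 9.88 and 11.5 CPM with NCML. Its groups did not overlap (log2 fold change 0.33 ± 0.09, SE, adjusted p = 0.422), and its share of the locus reads was 17.0 ± 1.46% and 20.9 ± 2.55% (SD, n = 4 each, 2-sided exact permutation p = 0.0857).

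The genes with the smallest p among the lower ones were mostly of low level. STX16-NPEPL1, whose upstream parent is a SNARE protein of the trans-Golgi network, had 4.00, 27.24, 16.55 and 16.23 estimated reads in controls and 4.54, 2.00, 4.00 and 6.39 with NCML. Control 1 lay within the NCML range, the log2 fold change was -0.59 ± 0.22 (SE, adjusted p = 0.565), and without control 1 the adjusted p was 0.269. ZNF559-ZNF177, from 2 zinc finger genes, had 1.06 ± 0.428 and 0.466 ± 0.308 CPM, and COMMD3-BMI1 had 2.10 ± 1.67 and 0.647 ± 0.888 CPM (SD, n = 4 each). The adjusted p was 0.595 and 0.751.

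**Figure D5:**
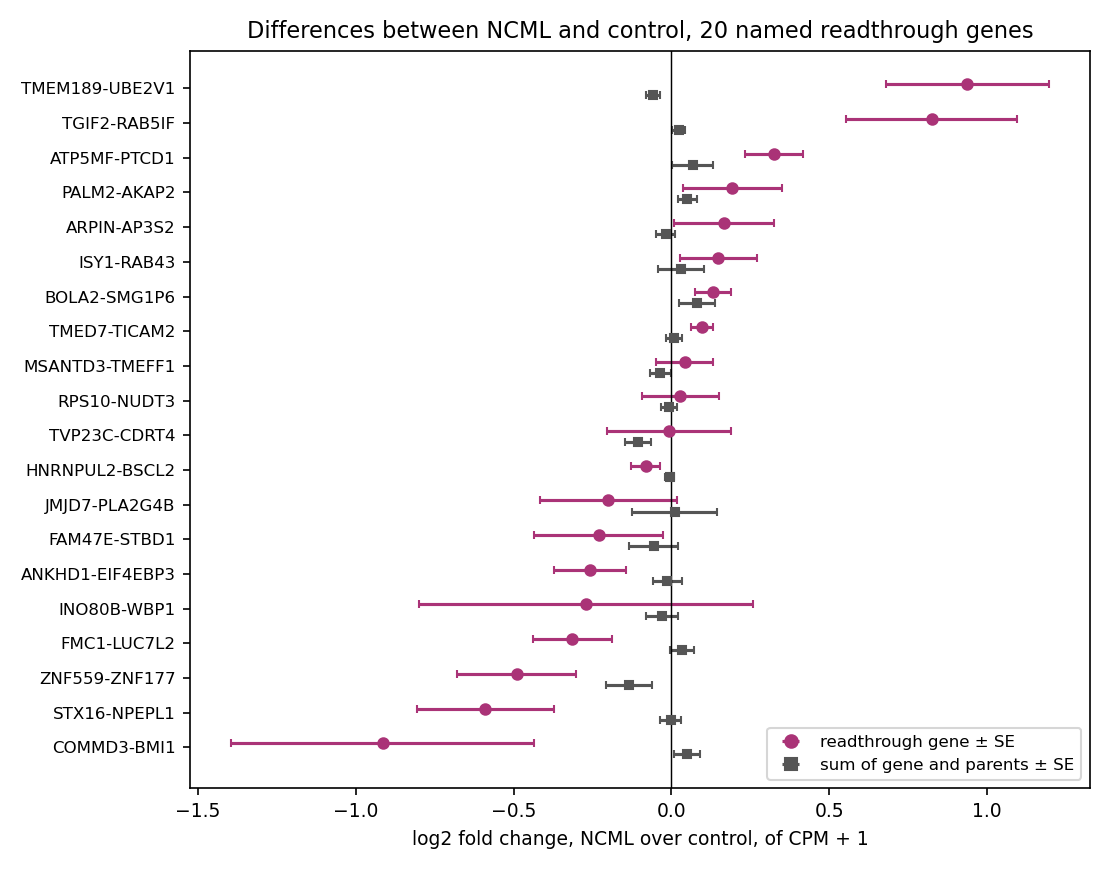
Log2 fold change of CPM + 1, NCML over control, with its SE, for 20 named readthrough genes (circles) and for the sum of each gene and its parents (squares). The circles run from -0.92 to 0.94, while the squares lie near 0 with shorter error bars.

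Groups that did not overlap were few. Of the 58 readthrough genes of at least 0.5 CPM, TMED7-TICAM2 and ATP5MF-PTCD1 had all NCML values above all control values, against 2.93% of the 14090 genes, and 0 had all below, against 1.33%. Both together made up 3.45% of the 58. Among the 20 named loci, the share of the locus reads on the readthrough gene was tested for each. TMED7-TICAM2 alone had an unadjusted p under 0.05, with 11.8 ± 0.431% in controls and 12.6 ± 0.270% with NCML (SD, n = 4 each, 2-sided exact permutation p = 0.0286, the smallest that 70 labellings allow). The p-values were not adjusted for the 20 tests. TMED7-TICAM2, FMC1-LUC7L2, TMEM189-UBE2V1 and ATP5MF-PTCD1 were named for a small p in the same libraries, so their share tests are not separate evidence.

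Across all loci the share on the readthrough gene was small. It exceeded 10% in 25 of 77 loci and was under 1% in 24. The median over loci was 2.55 ± 0.156% in controls and 2.47 ± 0.372% with NCML (SD, n = 4 each), a difference smaller than the spread between replicates. Before gene length was taken into account, BOLA2-SMG1P6 had the highest share (80.8%), followed by FAM47E-STBD1 (60.5%) and TVP23C-CDRT4 (58.3%). Per kb of exon length, TVP23C-CDRT4 had the highest share (59.4%), followed by BORCS8-MEF2B (56.6%) and FAM47E-STBD1 (55.2%), while BOLA2-SMG1P6 had 34.4%.

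The loci were also compared as sums. With each readthrough gene and its parents replaced by their sum, a step added after the whole sums had been seen, limma called 157 of 17495 genes and loci, 0.897%, and 1 of the 77 loci. That was TM4SF19-TCTEX1D2, which fell from 24.04 ± 0.345 to 20.4 ± 0.834 CPM (SD, n = 4 each; log2 fold change -0.23 ± 0.03, SE, adjusted p = 0.130). Its upstream parent TM4SF19, a membrane protein of the transmembrane 4 superfamily, fell from 21.3 ± 0.465 to 17.3 ± 0.485 CPM (adjusted p = 0.0802), while TM4SF19-TCTEX1D2 had between 0 and 28.01 estimated reads per library and was at 0 in 4. An unadjusted p under 0.05 was seen in 2 loci that were higher with NCML (2.60%, against 4.77% of all genes and loci in that fit) and 7 that were lower (9.09% against 2.9%). Levels were not matched here, because that fit also took in genes without reads in any library. The TMEM189-UBE2V1 sum was 304 ± 7.02 and 292 ± 6.33 CPM (SD, n = 4 each), opposite in direction to its readthrough gene, with an adjusted p of 0.602.

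Of the 154 parents, 2 were called (1.30%, against 0.895% of all genes, not matched for level), TM4SF19 and UBE2F. UBE2F, the ubiquitin-like conjugating enzyme that carries NEDD8, had 19.6, 19.7, 18.8 and 18.9 CPM in controls and 23.1, 22.04, 21.4 and 22.1 CPM with NCML, a rise of 0.19 ± 0.03 on the log2 scale (SE, adjusted p = 0.153). UBE2F-SCLY had 0, 1.45, 8.60 and 3.21 reads in controls and 21.63, 0, 0 and 8.57 with NCML, with no order between the groups.

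Genes whose products cut, end or remove transcripts were examined as lists. None was called at an adjusted p under 0.3, in 21 genes of cleavage and polyadenylation, 8 of termination and 15 of nonsense-mediated decay. An unadjusted p under 0.05 was seen in 1, 1 and 0 of them, or 2 of 44 (4.55%, against 7.66% of all genes, not matched for level). The median log2 fold changes were 0.01, 0.00 and 0.01. NUDT21, a cleavage factor that steers the choice of polyadenylation site, had 89.9, 90.5, 91.1 and 92.7 CPM in controls and 92.8, 98.1, 95.7 and 98.2 CPM with NCML. Its NCML values were all above its control values, by 0.08 ± 0.02 on the log2 scale (SE, adjusted p = 0.40), and it passed 0.3 without control 4 (adjusted p = 0.279) or without NCML 1 (adjusted p = 0.293). PABPN1, a nuclear poly(A)-binding protein and the downstream parent of BCL2L2-PABPN1, had 107 ± 2.64 and 105 ± 1.95 CPM (adjusted p = 0.763). In the termination list TTF2, a factor that releases the polymerase from DNA, had 17.3 ± 0.861 and 18.8 ± 0.644 CPM (adjusted p = 0.611) and XRN2 had 202 ± 6.61 and 207 ± 8.62 CPM (adjusted p = 0.922). In the decay list the smallest adjusted p was that of EIF4A3, a core protein of the exon junction complex (99.2 ± 2.32 and 102 ± 1.38 CPM, adjusted p = 0.753), and MAGOHB of the same complex had 10.1 ± 0.976 and 11.1 ± 1.37 CPM (SD, n = 4 each in all of these; adjusted p = 0.897).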

How the data were processed

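RNA-Seq of 4 control and 4 NCML cultures was analysed. The values deposited by the authors are normalised CPM, 1 column per library. The submitters' processing notes name edgeR and hg38. For the tumors of the same study the methods describe scaling by TMM factors, but the aligner, counting tool and annotation for these libraries are not given in the sources used here. The columns of the table all belonged to these 8 samples.

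The CPM of 1 read was taken as the most frequent value above 0, refined by least squares. In all libraries 99.6% to 99.9% of the positive values were multiples of 0.01 read, and 86.2% to 87.2% were whole within 0.05 read, so the underlying counts were estimated ones and no count test was used. Intervals from read numbers would cover counting error only and are not given. Rows of the same symbol were averaged, log2(CPM + 1) was computed, and NCML was tested against control in limma 3.58.1 (R 4.3.3), letting the prior variance follow the mean level, with Benjamini-Hochberg adjustment over all 17649 genes, with no filter. Fold changes on this scale understate those of low genes. For single locus shares an exact permutation test (2-sided, 70 labellings) was used. The fit and the read step were tested on simulated data.

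Positions, exon lengths and junctions came from GENCODE release 44 on GRCh37, in which 17508 of 17663 gene identifiers of the table were found. Strand of the libraries is not given in the sources used here.

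The genes named were the 12 readthrough genes with the highest mean CPM, the 5 with the smallest p in each direction among those of at least 0.5 CPM, any called, those above both parents, and in each factor list the 2 smallest p. All other readthrough genes that the text names were chosen after their values were seen. The members, lists and rules were chosen with earlier results of these data known.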

Additional observations from a re-analysis of the deposited data

Results flagged for a closer look

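In 48 groups of 4 values examined, 3 held a value far from the other 3, where chance alone gives about 1 in 20. PALM2-AKAP2 had 14.5 CPM in NCML 4 against 9.37 to 9.75 CPM in the other NCML libraries, so that the gap was 0.926 of the range. ZNF559-ZNF177 had 0.923 CPM in NCML 3 against 0.275 to 0.377 CPM (0.843 of the range). Control 4 held 17729519 estimated reads against 16559915 to 16690411 in the other controls (0.888 of the range). The values of INO80B-WBP1 in NCML 4 and of BIVM-ERCC5 in control 1 are given in the report.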

How the results depend on the processing

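Of the readthrough genes, 0 were called at an adjusted p under 0.3, and this held with a pseudocount of 0.1, unaveraged rows, median-centred libraries, quantile normalization and limma without the trend. With genes of at least 1 CPM, 2 were called (TMEM189-UBE2V1 and TGIF2-RAB5IF), and 1 was called in the fit with the replicate block (ZFP91-CNTF, adjusted p = 0.252, outside the rule for names). Leaving out 1 library gave 0 to 1 (STX16-NPEPL1 without control 1, TMEM189-UBE2V1 without NCML 1), and the factor lists gave 0 to 1 (NUDT21). With each locus summed 1 was called. All genes called numbered 158 as reported, 53 after centring, 189 with the replicate block and 20 to 690 with a library left out, the highest without control 4. Same-numbered libraries correlated in their deviations from the group means by 0.17, -0.03, -0.05 and 0.29, and 2 of 4 best with their own number, so the block was not the main design and the pairing is only a hint.

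The median log2 fold change was -0.10 with a pseudocount of 0.1 (-0.05 as reported), genes without overlap between groups were 1 after quantile normalization (2 as reported), the median share of the locus reads was 3.71% per kb of exon and 2.15% in loci of at least 10 CPM (2.51% as reported), and values that are not whole were 97.3% at a tolerance of 0.01 read (89.0% as reported). The cause of these shifts was not tested. Of the 20 named genes, 4 changed sign when a library was left out: TVP23C-CDRT4 (-0.17 to 0.13), RPS10-NUDT3 (-0.070 to 0.098), MSANTD3-TMEFF1 (-0.035 to 0.083) and INO80B-WBP1 (-0.58 to 0.24, the rise without NCML 4). In the other alternatives 136 of 138 values kept direction and side of the threshold, and the exceptions are the 2 genes called at 1 CPM or more.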
